A study of Homo sapiens with 20 samples.

Results

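The genes described here belong to the OAS (2-5A) pathway. The members are *OAS1*, *OAS2*, *OAS3*, *OASL*, *PDE12* and *ABCE1*, 6 of the 58233 gene identifiers counted in the RNA-seq data of this study. They were taken by their Ensembl identifiers, with no measured value in the rule. The set was nevertheless chosen with earlier results of these data known. The data are raw read counts per gene from 20 libraries of 4 human lung cancer cell lines: A549 (lung adenocarcinoma), HCC366 (lung adenosquamous carcinoma), NCI-H1650 (lung adenocarcinoma) and NCI-H196 (a variant small cell lung cancer). All cells, controls included, carried Cas9 and an sgRNA delivered by lentivirus, and the sgRNA was directed either against *GFP* (the control) or against *ADAR*, the gene of the RNA-editing enzyme ADAR1 (*ADAR* KO). A549 cells of both kinds were kept for 24 h with 10 ng/mL IFN-β or with vehicle (sterile water). The other 3 lines, which the study calls ADAR1-dependent, received no treatment, and their RNA was taken 5 days after transduction. The cells were transduced and selected populations rather than single clones, as far as the sources used here say. Each of the 10 conditions had 2 libraries, which differ in the sgRNA (sg1 and sg2). Nothing says that they came from separate cultures, so p-values measure the spread between sgRNAs.

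The OAS enzymes bind double-stranded RNA and join ATP into short chains of adenylates with 2′-5′ bonds (2-5A). 2-5A is a messenger of the antiviral state, in which protein synthesis slows. *OAS1*, *OAS2* and *OAS3* encode active synthetases that differ in the number of synthetase units, and OAS3 is known for its response to long double-stranded RNA. OASL has lost the synthetase activity and is known to enhance signalling by the RNA sensor RIG-I. PDE12 is a phosphodiesterase that degrades 2-5A and also trims poly(A) tails of mitochondrial RNA. ABCE1 was first described as an inhibitor of the 2-5A pathway and is an ATPase that splits ribosomes for recycling. The OAS genes are classic interferon-stimulated genes (ISGs), induced through ISGF3, a complex with STAT2 and IRF9 that binds the interferon-stimulated response element (ISRE). ADAR1 edits double-stranded RNA and thereby lowers its recognition by such sensors.

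The promoters of *OAS1* and *OAS3* are shown because both genes responded to IFN-β in the data below. The 250 bases before the transcription start of RefSeq were taken for the 4 members whose promoters are in the table used here (*OAS1*, *OAS3*, *PDE12* and *ABCE1*) and were matched to GRCh37, the build equivalent to hg19, each at a single place. Capitals mark matches to the ISRE core, taken as GAAA, any 2 bases and GAAA again, and to GAAANGAAA, the same GAAA blocks with 1 base between them. The *OAS1* sequence lies on the plus strand at chr12:113344517-113344766 and the *OAS3* sequence on the plus strand at chr12:113376029-113376278.
*OAS1*: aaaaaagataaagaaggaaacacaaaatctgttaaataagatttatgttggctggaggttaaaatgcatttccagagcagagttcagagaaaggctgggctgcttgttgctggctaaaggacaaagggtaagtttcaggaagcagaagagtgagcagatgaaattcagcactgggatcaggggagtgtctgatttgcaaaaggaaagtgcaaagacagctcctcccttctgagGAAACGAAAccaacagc
*OAS3*: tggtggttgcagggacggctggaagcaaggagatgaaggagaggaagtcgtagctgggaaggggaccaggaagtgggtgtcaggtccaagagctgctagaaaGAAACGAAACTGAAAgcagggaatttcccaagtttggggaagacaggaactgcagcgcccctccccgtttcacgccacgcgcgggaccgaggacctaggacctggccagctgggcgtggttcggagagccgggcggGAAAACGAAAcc
*OAS1* held 1 match to the shorter spacing, at −17 to −9 counted from the start, and 1 match to TTCNNNGAA, the core of the gamma-activated site (GAS), at −168 to −160. *OAS3* held 2 matches to the ISRE core, at −143 to −134 and at −12 to −3, and 1 match to the shorter spacing at −148 to −140, which overlaps the first. *PDE12* and *ABCE1* held none of the 3 motifs in these windows. Among 35116 promoter windows of the same length, searched on both strands, 3.02% held the ISRE core, 2.69% the shorter spacing and 6.57% the GAS core. The shorter spacing was added after the sequences had been read, and a match describes letters, not binding.

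The libraries held between 62679 and 19520189 reads on genes, with a median of 6411279. NCI-H196 GFP sg2 was the library with 62679 reads. HCC366 ADAR sg2 had 85.6% of its alignments at more than 1 place, against 22.5% to 59.1% in the others. *ADAR* itself was lower in ADAR sg1 and sg2 than in either GFP library in all 4 lines and both treatments, at 161 and 250.1 CPM (read counts scaled to library size by TMM) against 436 and 437 CPM in vehicle-treated A549 cells, for example. Its log2 fold change was −1.08 in A549 vehicle, −0.60 in A549 with IFN-β, −0.41 in NCI-H196 and −1.29 in NCI-H1650, all past the test, and −0.84 in HCC366 (adjusted p = 0.208). Of 5 epithelial markers, 5 exceeded 10 CPM in NCI-H1650, 3 in A549, 2 in HCC366 and 2 in NCI-H196, with sums of 41.8 to 63.6 CPM in NCI-H196 against 1629 or more in every library of the other lines. None of 4 squamous markers exceeded 10 CPM in HCC366, none of 3 lung adenocarcinoma markers did so in any line, and of 5 neuroendocrine markers NCI-H196 showed *NCAM1* alone above 10 CPM. The squamous markers *DSG3* and *KRT6A* exceeded 10 CPM in NCI-H1650 (sums of the 4 from 166 to 177 CPM), and *TP63* did so in NCI-H196. The neuroendocrine marker *CHGA* exceeded 10 CPM in NCI-H1650. *PTPRC*, a marker of blood cells, stayed at 2.43 CPM or less.

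All 6 members passed the filter on low counts in every fit. In the A549 fit, *OAS2* passed it only through the IFN-β libraries, since each vehicle library held 0 or 1 read. The filter thus tied the IFN-β calls of *OAS2*, in GFP and in ADAR cells, to its high level with IFN-β. *OAS1* (ENSG00000089127, 113343661 to 113371024), *OAS3* (ENSG00000111331, 113375856 to 113414265) and *OAS2* (ENSG00000111335, 113416200 to 113449528) lie side by side on the plus strand of chromosome 12 of GRCh37. *OASL* (ENSG00000135114) lies apart on the minus strand of chromosome 12, from 121455566 to 121477049. *PDE12* (ENSG00000174840) is on chromosome 3 from 57542001 to 57552575, and *ABCE1* (ENSG00000164163) on chromosome 4 from 146019440 to 146050676, both on the plus strand. Exons of a non-coding RNA gene on the opposite strand overlap those of *OAS1* by 222 bases, and exons of *ANAPC10* and *OTUD4* on the opposite strand overlap those of *ABCE1* by 132 and 276 bases. Whether the reads were counted by strand is not given in the sources used here, so reads in these bases cannot be assigned to a strand.

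**Figure D1:**
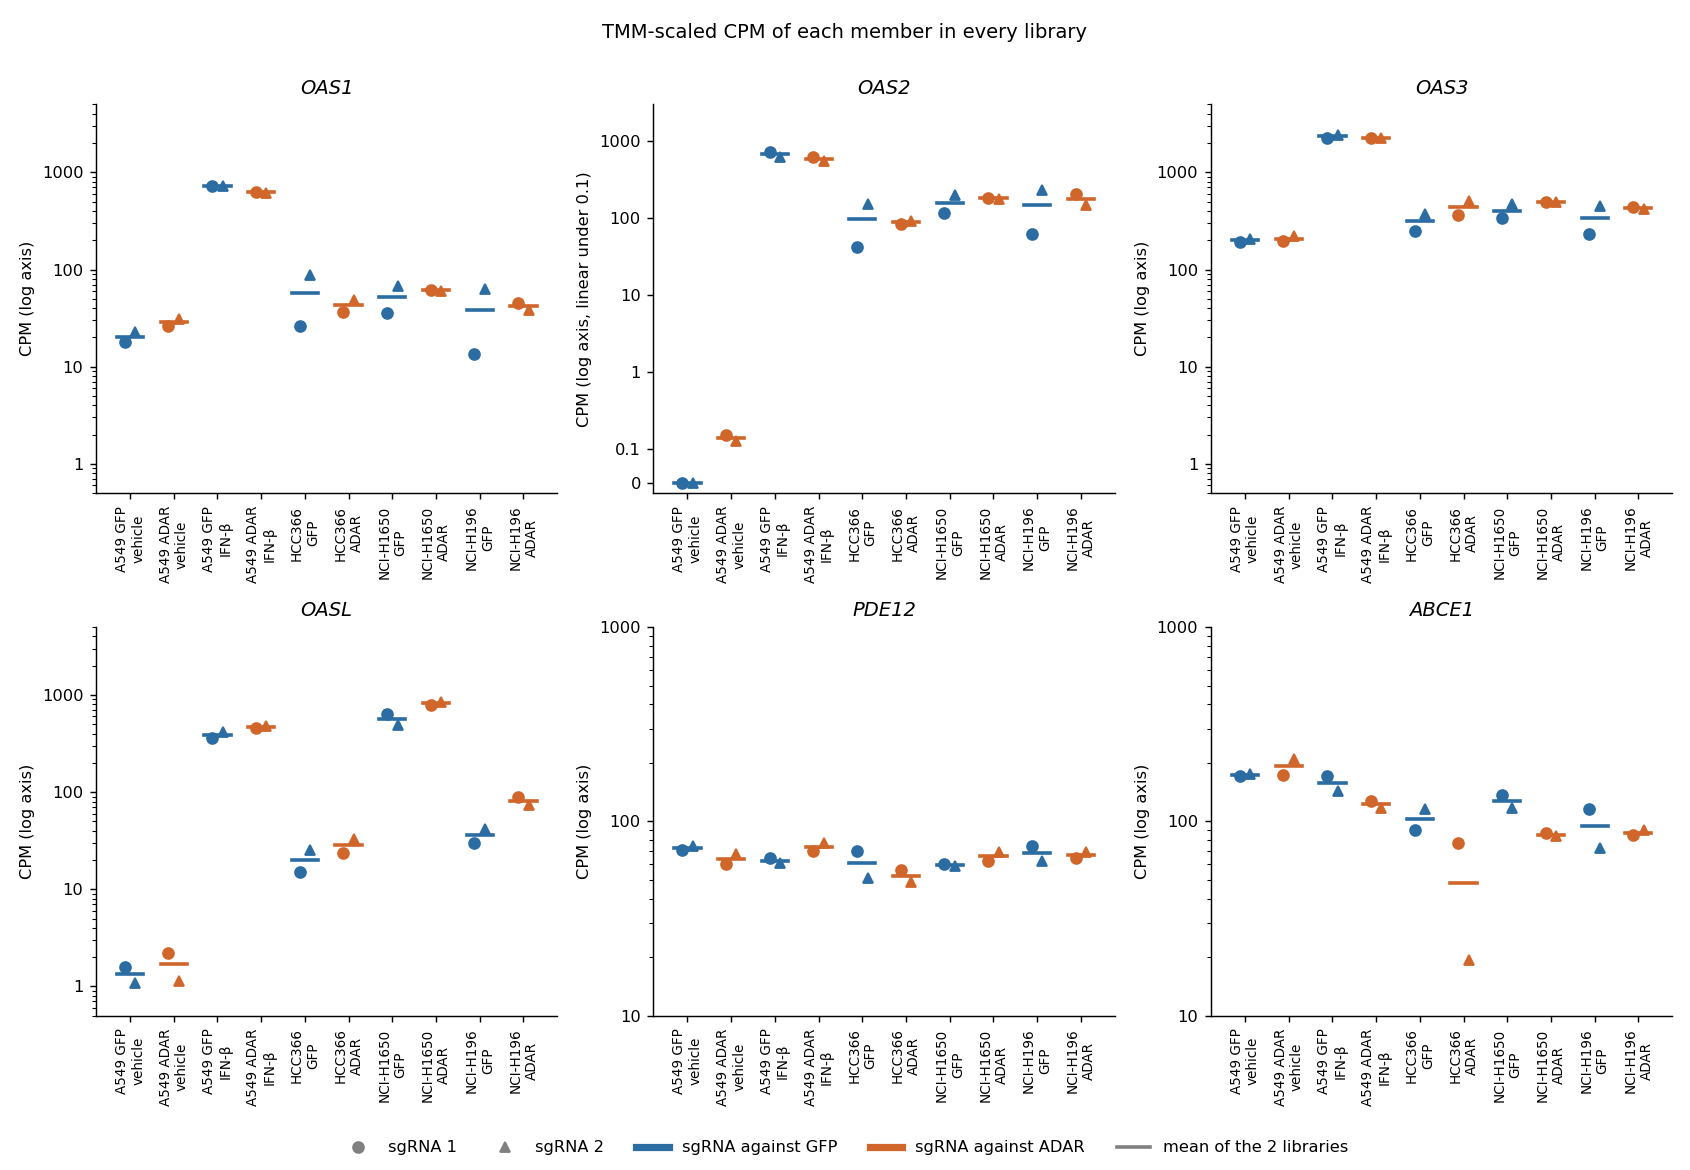
Level of the 6 members in all 20 libraries, in CPM scaled over all libraries by the TMM method, on log axes (linear under 0.1 CPM for *OAS2*). Circles are sg1, triangles sg2, lines the mean of the 2 libraries, blue GFP and orange ADAR. *OAS1*, *OAS2* and *OAS3* are highest in A549 with IFN-β, *OASL* is highest in NCI-H1650, and *OAS2* is at 0 in both vehicle-treated A549 GFP libraries.

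The first comparison asked how IFN-β changed the members in A549, a line that the study describes as insensitive to *ADAR* KO. In GFP cells, all 3 synthetase genes and *OASL* rose, and neither *PDE12* nor *ABCE1* passed the test. These 4 of 6 members called stand against 5.70% of the 15449 genes tested, and *OAS2* entered the test through its IFN-β libraries alone. *OAS1* was at 14.8 and 18.2 CPM in the vehicle libraries and at 599.5 and 596 CPM after IFN-β (CPM within A549 here and below, unless stated). Its log2 fold change was 5.15 (SE, the standard error, 0.12, adjusted p = 1.94e-24 by edgeR's quasi-likelihood test). *OAS3* went from 159 and 167 CPM to 1889.6 and 1999 CPM, a log2 fold change of 3.58 (SE 0.11, adjusted p = 2.60e-22). In both genes, the IFN-β libraries stood far above the vehicle libraries and close to each other. The data are of bulk RNA, in which a change in the number of responding cells and a change in RNA per cell cannot be told apart.

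*OAS2* had no read in either vehicle-treated GFP library and reached 589 and 517 CPM after IFN-β. With 0 reads allowing up to 3 (0.396 and 0.199 CPM in the 2 libraries), its level was at least 1858-fold higher with IFN-β (adjusted p = 3.03e-26). In ADAR cells it had 1 read in each vehicle library and 527 and 461 CPM after IFN-β, a ratio of 4356 with a 95% exact interval of 1206 to 35975 that covers counting error only. *OAS2* was thus the member with the lowest starting level in A549 and the widest span. *OASL*, the inactive relative, was also near the floor with vehicle, at 1.32 and 0.863 CPM, and rose to 301 and 342 CPM (log2 fold change 8.29, SE 0.19, adjusted p = 4.16e-25).

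In ADAR cells the 4 OAS genes rose again with IFN-β, and *ABCE1* fell, so that 5 of 6 members were called against 24.5% of all genes tested. *OAS1* rose from 21.7 and 24.8 CPM to 539 and 518 CPM (log2 fold change 4.50, adjusted p = 2.41e-23). *OAS3* rose from 162 and 177 CPM to 1925 and 1889.7 CPM (3.49, adjusted p = 4.49e-22), and *OASL* from 1.83 and 0.915 CPM to 393 and 403 CPM (8.21, adjusted p = 3.57e-25). *ABCE1*, the ribosome recycling factor, went from 142 and 169.7 CPM to 108 and 99.3 CPM, with both IFN-β libraries below both vehicle libraries. Its log2 fold change was −0.59 (SE 0.11, adjusted p = 0.000175). In GFP cells *ABCE1* was at 142 and 141 CPM with vehicle and at 141 and 117 CPM with IFN-β, a log2 fold change of −0.13 (adjusted p = 0.644). *PDE12*, the 2-5A phosphodiesterase, stayed within a narrow range, at 59.1 and 60.0 CPM with vehicle and 53.7 and 49.9 CPM with IFN-β in GFP cells (log2 fold change −0.20, adjusted p = 0.455). In ADAR cells it was at 49.6 and 54.6 CPM with vehicle and at 60.1 and 65.6 CPM with IFN-β (0.27, adjusted p = 0.0991).

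Whether the response to IFN-β differed between ADAR and GFP cells was tested by the interaction of both factors, and 1 of 6 members passed, against 5.05% of all genes tested. The log2 response of *OAS1* was smaller by 0.65 in ADAR cells (interaction −0.65, SE 0.16, adjusted p = 0.0166). With vehicle, ADAR sg1 and sg2 lay above both GFP libraries, and with IFN-β they lay below both. The interaction of *OAS1* no longer passed without vehicle GFP sg1 (−0.53, adjusted p = 0.136), vehicle ADAR sg2 (−0.54, adjusted p = 0.190) or IFN-β ADAR sg2 (−0.62, adjusted p = 0.0788). *ABCE1* (−0.46, adjusted p = 0.0959) and *PDE12* (0.48, adjusted p = 0.108) did not pass, although both had an unadjusted p under 0.05. The share of all genes with an unadjusted p under 0.05 was not counted, here or in the comparisons below. *ABCE1* passed without IFN-β GFP sg2 (−0.59, adjusted p = 0.0145) and *PDE12* without IFN-β GFP sg1 (0.53, adjusted p = 0.0350). For *OAS3* (−0.08) and *OASL* (−0.08) the interaction was smaller than its SE of 0.14 and 0.40. No interaction is given for *OAS2*, whose vehicle levels were all at or under 1 read.

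**Figure D2:**
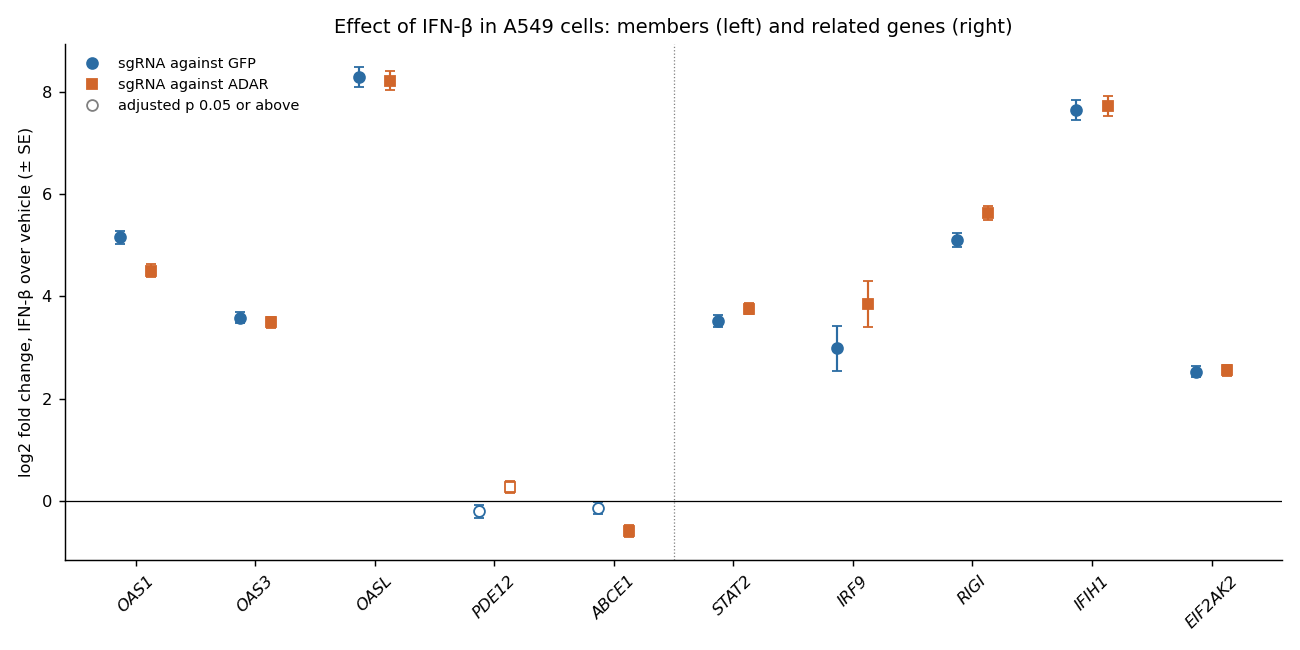
Log2 fold change of IFN-β over vehicle in A549 GFP cells (blue circles) and ADAR cells (orange squares), with standard errors, 2 libraries per condition. Open symbols did not pass the test. 5 members are on the left of the dotted line (*OAS2* is left out because its vehicle level is at the floor) and 5 related genes on the right. *OAS1*, *OAS3* and *OASL* lie between 3.49 and 8.29, and *PDE12* and *ABCE1* between −0.59 and 0.27.

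The genes around the pathway were counted by list. Of 4 other pathway genes (*ENPP1*, *AKAP7*, *FLNA* and *IQGAP1*), none passed in GFP or ADAR cells, and the lowest log2 fold change was that of *FLNA*, at −0.00 and −0.23. *STAT2* and *IRF9* rose in both kinds of cells, with log2 fold changes in GFP cells of 3.51 and 2.98. All 3 other sensors of double-stranded RNA rose as well, by 7.64 for *IFIH1* (MDA5), 5.10 for *DDX58* (RIG-I) and 2.53 for *EIF2AK2* (PKR) on the log2 scale in GFP cells. Of 5 mitochondrial RNA genes set beside *PDE12*, *PNPT1* (polynucleotide phosphorylase) alone rose, by 2.29 in GFP and 2.08 in ADAR cells, and the lowest was *MTPAP* at −0.17 in GFP cells and *SLIRP* at −0.30 in ADAR cells. The 4 ribosome recycling partners of *ABCE1* ranged in GFP cells from −0.27 (*ETF1*, adjusted p = 0.107) to 0.36 (*PELO*, adjusted p = 0.0949) and did not pass the test there. In ADAR cells 2 of the 4 fell, *ETF1* by 0.36 (adjusted p = 0.00521) and *GSPT1* by 0.27 (adjusted p = 0.0324). *ETF1* lost its call without vehicle ADAR sg2 (−0.30) or IFN-β ADAR sg2 (−0.35, adjusted p = 0.0514), and *GSPT1* without any 1 of the 4 libraries (−0.30 to −0.23). In GFP cells *ETF1* passed without IFN-β GFP sg1 (−0.32, adjusted p = 0.0401).

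Basal levels were compared between the GFP cells of the 4 lines, in CPM scaled over all 20 libraries. The A549 control cells had received vehicle and the other lines no treatment, so line and vehicle cannot be told apart. The time from transduction to RNA is given as 5 days for the other lines and is not given for A549. It cannot be told apart from line either. *OAS2* and *OASL* were higher in each of the 3 ADAR1-dependent lines than in A549, whereas *PDE12* did not pass in any of these comparisons. The members called numbered 5 of 6 in HCC366 (50.8% of all 19523 genes tested were called), 4 in NCI-H1650 (53.8%) and 3 in NCI-H196 (57.8%). *OAS2*, at 0 in A549, was at 41.5 and 152 CPM in HCC366, 116 and 199.6 CPM in NCI-H1650, and 62.7 and 230.1 CPM in NCI-H196. By the mean of the 2 libraries, this is at least 265-fold, 434-fold and 402-fold higher than in A549, in that order. The bound was 114-fold without HCC366 GFP sg2 and 417-fold without HCC366 GFP sg1, and 172-fold without NCI-H196 GFP sg2, where *OAS2* had 22 reads, and 632-fold without NCI-H196 GFP sg1. For NCI-H1650 it was 320-fold to 635-fold with any 1 of the 4 libraries left out. *OASL* was at 1.60 and 1.08 CPM in A549, at 15.01 and 25.2 CPM in HCC366, at 30.1 and 41.8 CPM in NCI-H196, and at 637 and 494 CPM in NCI-H1650. The log2 difference from A549 was 4.06 in HCC366, 4.58 in NCI-H196 and 8.78 in NCI-H1650 (adjusted p = 1.02e-11, 1.53e-13 and 1.52e-21).

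*OASL* also set NCI-H1650 apart from the other 2 dependent lines. Its log2 difference was −4.72 for HCC366 minus NCI-H1650 (adjusted p = 1.22e-16) and 4.20 for NCI-H1650 minus NCI-H196 (adjusted p = 1.80e-14), and leaving out any 1 of the 4 libraries in each kept both past the test. It was the sole member called between HCC366 and NCI-H1650, where 41.0% of all genes were called. Its level in NCI-H1650 was higher even than in A549 after IFN-β, which had 0.690 times the NCI-H1650 level (390.1 against 566 CPM). The 3 synthetase genes did not share this order. A549 with IFN-β had 13.98 times the *OAS1*, 4.24 times the *OAS2* and 5.86 times the *OAS3* level of NCI-H1650 GFP cells. Per kilobase of the canonical transcript, *OASL* made up 57.7% of the summed level of the 4 OAS genes in NCI-H1650 GFP cells, 5.61% in HCC366, 9.33% in NCI-H196 and 0.947% in A549 with vehicle. With the length of all annotated exons instead, its share in NCI-H1650 was 68.9%.

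*OAS3* had the highest level per length of the 4 genes in GFP cells of A549 with vehicle (70.2%), HCC366 (43.4%) and NCI-H196 (43.9%), also with the length of all annotated exons (86.2%, 51.8% and 46.7%). In A549 GFP cells with IFN-β, *OAS1* came first by the canonical transcript (41.7%, *OAS3* 33.5%) but *OAS3* by all exons (42.5%, *OAS1* 18.1%), so that the order of these genes there depends on the length used. Between lines, *OAS3* was at 192 and 208 CPM in A549, 252 and 376 CPM in HCC366, 337 and 468 CPM in NCI-H1650 and 234 and 449.8 CPM in NCI-H196. Its log2 difference from A549 was 0.66 in HCC366 (adjusted p = 0.0119), 1.01 in NCI-H1650 (adjusted p = 0.000191) and, for NCI-H196, 0.52 (adjusted p = 0.0662). The HCC366 value was 0.28 without HCC366 GFP sg2 (adjusted p = 0.470) and 0.59 without A549 GFP sg1 (adjusted p = 0.0927).

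*OAS1* was at 17.9 and 22.7 CPM in A549, 26.4 and 87.5 CPM in HCC366, 35.5 and 68.2 CPM in NCI-H1650 and 13.6 and 62.8 CPM in NCI-H196. It was higher than in A549 in HCC366 (log2 difference 1.59, adjusted p = 7.66e-05) and in NCI-H1650 (1.33, adjusted p = 0.000398). Neither passed without the sg2 library of that line, where the difference was 0.32 in HCC366 (adjusted p = 0.608) and 0.79 in NCI-H1650 (adjusted p = 0.0649). In NCI-H196 the fitted difference was −0.44 (adjusted p = 0.341), although the mean of its libraries was higher than in A549 (38.2 against 20.3 CPM). Against NCI-H196, *OAS1* was called higher in HCC366 (2.03, adjusted p = 0.000113; 43.2% of all genes called) and, with *OAS2* (0.97, adjusted p = 0.0465), in NCI-H1650 (1.78, adjusted p = 0.000409; 46.7% called). Without NCI-H196 GFP sg1 all 3 turned in direction, to −0.02 for *OAS1* in HCC366, −0.54 for *OAS2* in NCI-H1650 and −0.27 for *OAS1* in NCI-H1650. The *OAS1* difference between HCC366 and NCI-H196 was also 0.77 without HCC366 GFP sg2 (adjusted p = 0.220), and that of *OAS2* 0.51 without NCI-H1650 GFP sg2 (adjusted p = 0.380). *ABCE1* was lower than in A549 (172 and 176 CPM) in HCC366 (90.8 and 116 CPM, log2 difference −0.73, adjusted p = 0.0168) and in NCI-H196 (73.2 and 115 CPM, −0.66, adjusted p = 0.0458). The HCC366 call was lost without A549 GFP sg2 (−0.73, adjusted p = 0.0653) or HCC366 GFP sg1 (−0.62, adjusted p = 0.112), and the NCI-H196 call was lost with any 1 of the 4 libraries left out (−1.26 to −0.60, adjusted p from 0.0895 to 0.352). *PDE12* spanned 1.41-fold between the lowest and the highest of all 10 condition means, against 3.96-fold for *ABCE1*, 11.8-fold for *OAS3*, 35.7-fold for *OAS1* and 614-fold for *OASL*. The span of *ABCE1* was 2.47-fold without HCC366 ADAR sg2, the library with 85.6% of alignments at more than 1 place, and 9.89-fold without HCC366 ADAR sg1.

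The effect of *ADAR* KO was examined within each line. In NCI-H1650, *OASL* rose and *ABCE1* fell, which makes 2 of 6 members called against 8.60% of the 14530 genes tested. *OASL* was at 713 and 564 CPM in GFP cells and at 891 and 945 CPM in ADAR cells (CPM within the line), a log2 fold change of 0.52 (SE 0.10, adjusted p = 0.000320). *ABCE1* was at 153 and 134 CPM in GFP cells and at 97.7 and 93.5 CPM in ADAR cells, a log2 fold change of −0.59 (SE 0.11, adjusted p = 0.000134). In both genes the ADAR libraries lay outside the range of the GFP libraries. How often libraries lie apart in this way over all genes was not counted, here or in the comparisons below. *OAS3* was at 376 and 535 CPM against 548.8 and 549.3 CPM in the ADAR libraries (0.27, adjusted p = 0.121), and *PDE12* at 67.3 and 66.9 CPM against 70.4 and 77.9 CPM (0.14, adjusted p = 0.544), with the ADAR libraries above both GFP libraries in each. *OAS1* (39.7 and 77.9 against 68.9 and 67.3 CPM) and *OAS2* (130.1 and 228 against 204 and 199 CPM) had ADAR libraries inside the GFP range.

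The GFP libraries of NCI-H1650 differed between their sgRNAs, and the calls differed with the one left out. Without GFP sg2, *OAS1* (0.75, adjusted p = 0.00327), *OAS2* (0.60, adjusted p = 0.00579) and *OAS3* (0.51, adjusted p = 0.0165) passed as higher in ADAR cells, and *OASL* did not (0.33, adjusted p = 0.185). Without GFP sg1, *OAS1* (−0.19) and *OAS2* (−0.17) turned in direction and *ABCE1* lost its call (−0.48, adjusted p = 0.0542). For *OAS1*, *OAS2* and *OAS3*, the same order of the GFP sgRNAs appeared in all 3 dependent lines. *OAS1* in GFP sg2 was 5.63 times its level in GFP sg1 in NCI-H196, 3.27 times in HCC366 and 1.96 times in NCI-H1650. In the order HCC366, NCI-H1650 and NCI-H196, these ratios were 3.62, 1.75 and 4.48 for *OAS2* and 1.47, 1.42 and 2.35 for *OAS3*. For *OASL* they were 1.66, 0.791 and 1.70, the other way in NCI-H1650. The NCI-H196 ratios rest on GFP sg2, with 6 reads for *OAS1*, 22 for *OAS2*, 43 for *OAS3* and 4 for *OASL*. In vehicle-treated A549 cells the ratio was 1.23 for *OAS1* and 1.05 for *OAS3*. Among the ADAR libraries, sg2 over sg1 ranged from 0.665 to 1.50 for *OAS1*, *OAS2* and *OAS3* in the 3 lines.

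**Figure D3:**
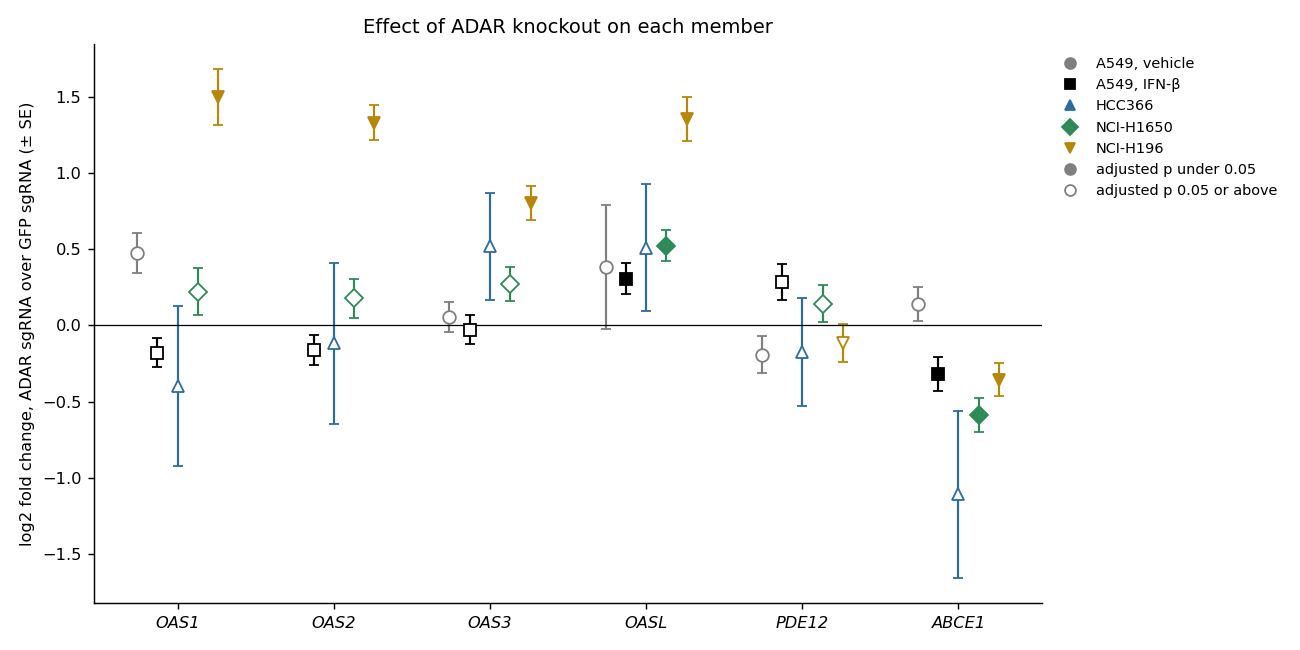
Log2 fold change of *ADAR* KO over GFP for each member, with standard errors, in A549 with vehicle (grey circles), A549 with IFN-β (black squares), HCC366 (blue triangles), NCI-H1650 (green diamonds) and NCI-H196 (dark yellow inverted triangles). Filled symbols passed the test and open ones did not, and *OAS2* in A549 with vehicle is left out. *OASL* lies above 0 in all 5 and *ABCE1* below 0 in all but A549 with vehicle. In NCI-H196, *OAS1*, *OAS2*, *OAS3* and *ABCE1* (to 0.010) turned in direction without GFP sg1. *OASL* in A549 with vehicle turned to −0.15 with 1 library left out, and further values that turned are given below.

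In NCI-H196, edgeR called *OAS1* (log2 fold change 1.50), *OAS2* (1.33), *OAS3* (0.80) and *OASL* (1.35) higher and *ABCE1* (−0.36) lower in ADAR cells, 5 of 6 members against 17.8% of the 14094 genes tested. The adjusted p-values were 2.39e-14, 4.93e-29, 3.43e-11, 1.50e-18 and 0.0101. *OAS1* was at 15.6 CPM in GFP sg1 and at 88.0 CPM in GFP sg2, where the value stems from 6 reads (95% exact Poisson interval 32.3 to 191 CPM), against 56.8 and 43.9 CPM in ADAR cells. *OAS2* was at 72.0 and 322 CPM (22 reads in GFP sg2) against 255 and 169 CPM, and *OAS3* at 269 and 630.3 CPM (43 reads) against 547 and 473 CPM. For these genes the ADAR libraries lay between the 2 GFP libraries, and the mean of *OAS1* was 50.4 CPM in ADAR and 51.8 CPM in GFP cells. *OASL* was at 34.6 and 58.6 CPM (4 reads) against 112 and 82.7 CPM, with both ADAR libraries above both GFP libraries, and *ABCE1* at 132 and 103 CPM (7 reads) against 107 and 102 CPM.

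Without the shallow GFP sg2, all 5 NCI-H196 calls held, at 1.56, 1.40, 0.88, 1.35 and −0.37, against a single GFP library. Without GFP sg1 none held, and the values were −0.92 for *OAS1*, −0.75 for *OAS2*, −0.33 for *OAS3*, 0.60 for *OASL* and 0.01 for *ABCE1*. *OAS2* also lost its call without ADAR sg1 (0.72, adjusted p = 0.227), as did *OAS3* (0.38, adjusted p = 0.672) and *ABCE1* (−0.32, adjusted p = 0.725). Without ADAR sg2, *OAS3* (0.58, adjusted p = 0.757) and *ABCE1* (−0.26, adjusted p = 0.998) lost theirs. DESeq2 called none of the 6 in NCI-H196 and gave no adjusted p for 4 of them. *PDE12* was at 85.9 and 88.0 CPM (6 reads) in GFP and at 81.2 and 78.9 CPM in ADAR cells (−0.11, adjusted p = 0.583).

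In HCC366 none of the 6 members passed, by edgeR or by DESeq2, and none had an unadjusted p under 0.05, with 1.25% of the 11135 genes tested called. *ABCE1* had the largest difference of the members, at 98.4 and 124 CPM in GFP cells against 83.1 and 22.0 CPM in ADAR cells (log2 fold change −1.11, SE 0.54, adjusted p = 0.315). The 22.0 CPM came from ADAR sg2, the library with 85.6% of alignments at more than 1 place, where *ABCE1* had 34 reads. Without it the value was −0.42, and without ADAR sg1 it was −2.38 (adjusted p = 1.15e-14). *OAS3* was at 273 and 402 CPM against 387 and 581 CPM (0.52, adjusted p = 0.442) and *OASL* at 16.3 and 26.9 CPM against 25.4 and 37.5 CPM (0.51, adjusted p = 0.525). Without ADAR sg1, which leaves the library of many multiple alignments alone, *OAS3* (0.75, adjusted p = 0.000369) and *OASL* (0.67, adjusted p = 0.0452) passed. *OAS1* was at 28.7 and 93.7 CPM against 39.4 and 55.6 CPM, *OAS2* at 44.9 and 162 CPM against 91.0 and 103 CPM, and *PDE12* at 76.7 and 55.0 CPM against 60.4 and 55.6 CPM, with the ADAR libraries inside the GFP range in each.

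In A549 with vehicle, no member passed by edgeR or DESeq2, and 0.123% of the 15449 genes tested did. *OAS1* had an unadjusted p of 0.00124 by edgeR, at 14.8 and 18.2 CPM in GFP cells against 21.7 and 24.8 CPM in ADAR cells (log2 fold change 0.48, adjusted p = 0.493). It was the one member with an unadjusted p under 0.05. *OAS3* (159 and 167 against 162 and 177 CPM) and *OASL* (1.32 and 0.863 against 1.83 and 0.915 CPM) had overlapping libraries, as did *ABCE1* (142 and 141 against 142 and 169.7 CPM), and *PDE12* was at 59.1 and 60.0 against 49.6 and 54.6 CPM (−0.19). *OAS2* had 0 reads in both GFP and 1 read in both ADAR libraries, for which no fold is given. In A549 with IFN-β, 2 of 6 members passed against 17% of all genes tested. *OASL* was at 301 and 342 CPM in GFP cells and at 393 and 403 CPM in ADAR cells (0.31, SE 0.10, adjusted p = 0.0388). *ABCE1* was at 141 and 117 CPM in GFP cells and at 108 and 99.3 CPM in ADAR cells (−0.32, SE 0.11, adjusted p = 0.0483). For both genes the ADAR libraries lay outside the GFP range, but neither call outlasted the loss of IFN-β GFP sg1 (0.22 and −0.18), ADAR sg1 (0.33 and −0.37) or ADAR sg2 (0.29 and −0.25), with adjusted p from 0.0554 to 0.360. *OAS1* (−0.18), *OAS2* (−0.16), *OAS3* (−0.03) and *PDE12* (0.28, adjusted p = 0.0970) did not pass. *PDE12* was at 53.7 and 49.9 CPM in GFP cells against 60.1 and 65.6 CPM in ADAR cells and passed without IFN-β GFP sg1 (0.34, adjusted p = 0.0477).

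A fit of the 12 libraries of the dependent lines with the line as a covariate gave *OASL* as the 1 member called, against 5.30% of all genes tested. Its log2 fold change was 0.71 (SE 0.18, adjusted p = 0.0290), and the ADAR libraries exceeded both GFP libraries in NCI-H1650 and NCI-H196 and overlapped them in HCC366. In NCI-H196 the *OASL* value of GFP sg2 stems from 4 reads, and its interval holds both ADAR values. The call was lost without any 1 of 6 libraries (HCC366 GFP sg1, NCI-H1650 GFP sg2, NCI-H1650 ADAR sg2, NCI-H196 GFP sg1, NCI-H196 ADAR sg1 or NCI-H196 ADAR sg2), where the value was 0.50 to 0.73 with adjusted p from 0.0552 to 0.114. *ABCE1* was at −0.70 (SE 0.22, adjusted p = 0.0708) and passed without HCC366 ADAR sg2 (−0.50, adjusted p = 0.000841) or HCC366 ADAR sg1 (−0.85, adjusted p = 0.0428). *OAS3* was at 0.38 (adjusted p = 0.176), *OAS1* at 0.21, *OAS2* at 0.20 and *PDE12* at −0.06.

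The difference of the *ADAR* KO effect itself was tested between the lines. No member passed for HCC366 minus NCI-H1650 (0.659% of all genes called), HCC366 minus NCI-H196 (0.792%), NCI-H1650 minus NCI-H196 (0.00%) or the mean of the dependent lines minus vehicle-treated A549 (0.953%), by edgeR or by DESeq2. At an unadjusted p under 0.05 by edgeR there were 0, 2 (*OAS1* and *OASL*), 1 (*OASL*) and 1 (*ABCE1*) members in these comparisons. The share of all genes at this threshold was not counted, so these numbers cannot be set against it. The effect of *ADAR* KO was thus not shown to differ between lines for any member.

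Among the related genes, *DDX58* and *IFIH1* were the 2 of 3 sensors called higher after *ADAR* KO in NCI-H1650 (log2 fold change 0.39 and 0.37) and in NCI-H196 (1.01 and 1.71). In NCI-H196 both turned in direction without GFP sg1 (−0.15 and −0.21), and *DDX58* also lost its call without ADAR sg1 (0.74, adjusted p = 0.210). In NCI-H1650 both lost their calls without GFP sg2 (0.21 and 0.33) or ADAR sg2 (0.23 and 0.25), as did *IFIH1* without GFP sg1 (0.38, adjusted p = 0.151). *EIF2AK2* was the lowest of the 3 in both (−0.33, adjusted p = 0.0561, and −0.10), and it passed in NCI-H1650 without GFP sg1 (−0.51, adjusted p = 0.0229). In A549 with IFN-β, *DDX58* was called higher (0.68, adjusted p = 1.69e-05), and *IFIH1* was at −0.04. *PELO*, which acts with ABCE1 in freeing stalled ribosomes, was the highest of the 4 recycling partners in NCI-H1650 (0.63, adjusted p = 0.000442) and NCI-H196 (0.35, adjusted p = 0.0291) and the only one called in either, while the lowest were *HBS1L* (−0.31) in NCI-H1650 and *GSPT1* (−0.22) in NCI-H196. *PELO* lost its call without NCI-H1650 GFP sg2 (0.53, adjusted p = 0.0554) and, in NCI-H196, without GFP sg1 (0.37), ADAR sg1 (0.40) or ADAR sg2 (0.21). None of the 4 other pathway genes named above and no mitochondrial RNA gene passed in any of the 5 *ADAR* KO comparisons, and *AKAP7* did not pass the filter on low counts in HCC366. Without HCC366 ADAR sg1, *FLNA* (0.72), *IQGAP1* (−0.89), *MTPAP* (−1.67), *LRPPRC* (−0.91) and *PNPT1* (−1.28) passed there, and *SUPV3L1* (0.84) passed without HCC366 ADAR sg2. Without NCI-H196 GFP sg2, *ENPP1* (−0.72) and *IQGAP1* (−0.21) passed in NCI-H196, and *FLNA* (−0.40) passed in A549 with IFN-β without IFN-β GFP sg1. *STAT2* was called higher in NCI-H196 (0.56) and in A549 with IFN-β (0.31, adjusted p = 0.0211). It lost the first call without NCI-H196 GFP sg1 (0.058), ADAR sg1 (0.47) or ADAR sg2 (0.56) and the second without IFN-β ADAR sg2 (0.24, adjusted p = 0.302).

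Over the 10 conditions, the order of levels put A549 with IFN-β first for *OAS1*, *OAS2* and *OAS3*, with GFP above ADAR and the libraries of these conditions apart from each other and from the rest in CPM scaled over all 20 libraries. For *OAS2* and *OAS3*, the GFP and ADAR libraries with IFN-β overlapped in CPM scaled within A549, and for *OAS1* they did not. Below them, the untreated conditions of the 3 dependent lines overlapped their neighbours in the order for *OAS1*, whereas A549 with vehicle was last for all 4 OAS genes. For *OASL* the order was NCI-H1650 ADAR, NCI-H1650 GFP, A549 ADAR with IFN-β and A549 GFP with IFN-β, each apart from the next. Neighbours in the order of *PDE12* overlapped in all but the last step, and for *ABCE1* A549 with vehicle came first (ADAR 192 CPM, GFP 174 CPM, overlapping) and HCC366 ADAR last (48.4 CPM). Patterns over the 10 conditions were compared as a description, with the reads of the 2 libraries of a condition summed before scaling. The deeper library therefore weighs more, and NCI-H196 GFP stands almost wholly for sg1 (9156750 reads against 62679). The patterns of all genes share libraries and scaling. Among 19523 genes, the most similar included *TDRD7* and *LAP3* for *OAS1* (Pearson r of 0.98 each). They included *IFIT3* (0.99), *PARP12* and *UBA7* (0.98 each) for *OAS2*, and *SHFL* (0.98), *OAS1* (0.97) and *TDRD7* (0.96) for *OAS3*. For *OASL* they were *LAMP3* (0.97), *FBXO6* (0.96) and *RSAD2* (0.95). For *ABCE1* they were *LAMTOR5* (0.99), *TOP2B* and *ERG28* (0.98 each), and for *PDE12* *GAS5-AS1*, *RNFT1* and *CRTC3* (0.94 each). Among the members, r was 0.97 between *OAS1* and *OAS3* and 0.89 between *OAS2* and *OASL*, and −0.48 between *OAS2* and *ABCE1*.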

How the data were processed

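RNA-seq libraries were rRNA-depleted, directional and paired-end, and the authors aligned the reads with STAR to hg19 and counted them per gene with HTSeq (versions, annotation release and strand setting not given in the sources used here). The deposited values are raw counts for 58233 Ensembl identifiers, of which 55727 matched the annotation. Rows that name no gene were left out. Depth was 62679 to 19520189 reads, and intervals cover counting error only. Counts were tested with edgeR 4.0.16 in R 4.3.3 (TMM, filterByExpr, quasi-likelihood F-test, two-sided, Benjamini-Hochberg over all genes tested, threshold 0.05), within each dependent line (4 libraries), A549 (8), the dependent lines together (12) or all 20 libraries (basal levels). Fold changes used a prior count of 0.125. Alternatives were DESeq2 1.42.0, other size factors, no filter, a replicate block, other samples in the fit, GC and length offsets in HCC366, and leaving out each library. Scripts were tested on simulated counts. The named genes were the 6 members, *ADAR*, and 20 genes in 5 lists, of which 2 are not reported here. The members and lists were chosen with earlier results of these data known. Promoters came from RefSeq (GRCh38.p14) and were matched to GRCh37.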

Additional observations from a re-analysis of the deposited data

Results flagged for a closer look

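The response of *OAS1* to IFN-β in A549 differed between ADAR and GFP cells by the test of the difference itself. The interaction was −0.65 in log2 units (SE 0.16, adjusted p = 0.0166 by edgeR's quasi-likelihood test), with both ADAR libraries higher with vehicle and lower with IFN-β than both GFP libraries. It ranged from −0.83 to −0.53 when each of the 8 libraries was left out, and 3 of these 8 values did not pass the test.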

How the results depend on the processing

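The number of members called (of 6) was within 1.5 times its value for the IFN-β effect in GFP and ADAR cells, and for *ADAR* KO in A549 with vehicle, under all alternatives run. For *ADAR* KO it moved from 5 in NCI-H196 to 0 by DESeq2, 3 with the replicate block and 1 with all 20 libraries in one fit, from 2 in NCI-H1650 to 0 with all 20, from 0 in HCC366 to 1 with all 20, and from 2 in A549 with IFN-β to 1 by DESeq2, 1 with no filter, 1 with the replicate block and 0 with all 20. The interaction went from 1 to 0 with all 20, and the 3 lines together from 1 to 2 with no filter, 0 with the replicate block and 3 with all 20. The difference HCC366 minus NCI-H196 went from 0 to 1 with no filter and with all 20. Basal calls went from 1 to 2 (HCC366 minus NCI-H1650) with only the 8 baseline libraries, from 1 to 0 by DESeq2 and 2 with the 8 (HCC366 minus NCI-H196), and from 3 to 1 by DESeq2 and 5 with the 8 (NCI-H1650 minus NCI-H196). The cause was not tested.

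Leaving out each library gave 0 to 3 members in HCC366, 0 to 5 in NCI-H196, 1 to 4 in NCI-H1650, 0 to 2 in A549 with IFN-β, 0 to 2 for the interaction, 0 to 2 for the 3 lines together, 0 to 1 for HCC366 minus NCI-H1650, 0 to 3 for HCC366 minus NCI-H196 and 0 to 1 for the dependent lines minus A549. Basal calls were 3 to 4 (HCC366 minus A549), 1 to 2 (HCC366 minus NCI-H1650), 0 to 1 (HCC366 minus NCI-H196) and 1 to 4 (NCI-H1650 minus NCI-H196).

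Among log2 fold changes that turned in direction, *OAS2* in HCC366 was 0.145 with the replicate block and 0.139 with the crossed block, *PDE12* in HCC366 0.29 with GC and length offsets, and *PDE12* over the 3 lines 0.000307 by DESeq2. With libraries left out, HCC366 gave −1.01 to 0.73 (*OAS1*), −0.78 to 1.11 (*OAS2*) and −0.40 to 0.042 (*PDE12*). NCI-H1650 gave −0.19 to 0.75 (*OAS1*) and −0.17 to 0.60 (*OAS2*). NCI-H196 gave −0.92 to 1.81 (*OAS1*), −0.75 to 1.40 (*OAS2*), −0.33 to 0.88 (*OAS3*) and −0.37 to 0.010 (*ABCE1*). A549 gave −0.0074 to 0.12 (*OAS3*) and −0.15 to 0.84 (*OASL*) with vehicle, −0.064 to 0.015 (*OAS3*) with IFN-β and −0.52 to 0.47 (*OASL*) for the interaction. The 3 lines together gave −0.16 to 0.62 (*OAS1*), −0.093 to 0.57 (*OAS2*) and −0.11 to 0.0044 (*PDE12*). Basal differences were −0.021 to 2.49 (*OAS1*, HCC366 minus NCI-H196), −0.27 to 2.15 (*OAS1*, NCI-H1650 minus NCI-H196) and −0.54 to 1.33 (*OAS2*, NCI-H1650 minus NCI-H196).

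The sgRNA numbers were not used to pair the libraries in the main tests. Deviations of same-numbered libraries correlated at −0.253 in HCC366, −0.0209 in NCI-H196 and −0.0163 in NCI-H1650. A crossed pairing in HCC366, added after seeing the data, called 1 of 6 members.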

Other observations

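The genes around the pathway also differed between the lines at baseline, and the direction depended on the list. Against A549 GFP cells with vehicle, 3 of 3 other sensors of double-stranded RNA were called higher in HCC366 and 2 of 3 each in the other two dependent lines. Other lists went the opposite way. Of the 4 recycling partners of *ABCE1*, 3 were called lower in HCC366 and 2 in each other dependent line, and none higher. NCI-H1650 had 4 of 5 mitochondrial RNA genes called lower. HCC366 and NCI-H196 had 3 each, the latter with 1 called higher. Of all genes tested, 24.2% were called higher and 26.6% lower in HCC366, 30.2% and 27.6% in NCI-H196, and 27.5% and 26.3% in NCI-H1650.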
